A study of Mus musculus with 30 samples.

Results

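The genes described here are the 3 neurofilament genes Nefl, Nefm and Nefh and the neurotrophin receptor gene Ngfr, 4 of the 39676 genes counted in 30 mouse melanomas. They were picked by name from earlier results of these tumors, in which their levels differed between tumor types. Their differences between types are therefore given as a description, without a test. All 4 were listed in the counts under their Ensembl identifiers and all 4 passed a filter that required 10 counts or more on average over the tumors, as did 15926 genes in all. Nefl, with a mean of 32.03 counts over the 30 tumors, and Nefm, with 29.5, passed it only through 1 tumor type, and Nefh, with 10.03, lay just above it. Ngfr had a mean of 233.83 counts.

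RNA from whole tumors was sequenced at day 8 after subcutaneous inoculation of B16-F10 cells, a mouse melanoma line of C57BL/6 origin, into C57BL/6 mice, which the study bought as females. There were 10 tumors each of B16-GFP, the control with GFP and no added interferon gene, B16-IFNA4, which secretes the type I interferon subtype IFNα4, and B16-IFNA9, which secretes IFNα9. All 3 lines also carry herpes simplex virus glycoprotein B and luciferase from retroviral vectors. The interferon vectors encode GFP as well, by the study's methods. The labels give no age for the mice, which by the study's methods were typically young adults. Each tumor type came from 1 transduced line, so the interferon gene and other properties of the line cannot be told apart. The labels number the tumors of a type from 1 to 10 as biological replicates and name no batch. Total counts per tumor ran from 14598517 to 19788383, and levels are given as CPM, counts relative to the library total after TMM scaling.

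Neurofilaments are intermediate filaments that fill the axons of neurons and help to set their diameter. The light chain (Nefl) can form the filament core, and the medium (Nefm) and heavy (Nefh) chains carry long tails that project from it. Ngfr encodes the p75 neurotrophin receptor (CD271), a member of the tumor necrosis factor receptor family that binds the neurotrophins. It is found on neural crest cells, Schwann cells and some neurons and stromal cells, and in melanoma it marks cells in a neural crest-like state with low pigment gene expression.

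Nefl (ENSMUSG00000022055.7) lies on the plus strand at chr14:68083863-68089095 of GRCm38, and Nefm (ENSMUSG00000022054.11) on the minus strand at chr14:68082590-68124846, by GENCODE M21. A longer Nefm transcript ends antisense to Nefl, so that 1108 bases, 32.8% of the Nefl exon bases, are annotated as exon of both genes. The library kit keeps the strand of the RNA, but the strand setting of the counting is not given in the sources used here. Nefh (ENSMUSG00000020396.8, chr11:4938754-4948064, minus strand) and Ngfr (ENSMUSG00000000120.6, chr11:95568818-95587735, minus strand) overlap no other annotated gene. The 3 neurofilament genes are related in sequence, which matters for counting short reads. The longest run of identical coding bases in any pair was 23, between Nefm and Nefh, against a read length of 50 bases. No stretch of 50 bases in the Nefl or Nefh exons occurred in sense in another gene, and 1 of 5733 in Nefm did. Antisense, 31.8% of the Nefl stretches occurred in Nefm, which is the overlap described above, so reads from there could have been assigned to either gene or dropped.

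Nefl and Nefm were at 7 counts or fewer in every control tumor and at 21 counts or more in every B16-IFNA4 tumor. Nefl counts were 0, 3.5 and 7 (lowest, median and highest of 10) in B16-GFP tumors, 21, 98.5 and 149 in B16-IFNA4 tumors and 0, 3 and 10 in B16-IFNA9 tumors. The 10 B16-IFNA4 tumors all lay above every tumor of the other types, and B16-IFNA9 and B16-GFP tumors overlapped almost completely. Mean Nefl was 0.238 ± 0.199 CPM (SD, n = 10) among control tumors, 5.02 ± 2.25 CPM in B16-IFNA4 and 0.278 ± 0.222 CPM in B16-IFNA9 tumors. The ratio of the mean levels was 21.1 for B16-IFNA4 over B16-GFP, 18.1 for B16-IFNA4 over B16-IFNA9 and 1.17 for B16-IFNA9 over B16-GFP. Fitted log2 fold changes were 4.41 (SE 0.47) for B16-IFNA4 against B16-GFP and 0.26 (SE 0.531) for B16-IFNA9 against B16-GFP, the second between 0.07 and 0.49 with 1 tumor left out. In whole tumors, more cells of a type and more RNA per cell cannot be told apart.

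Nefm was also highest in B16-IFNA4 tumors. Its counts were 0, 3 and 7 in B16-GFP tumors, 22, 83 and 120 in B16-IFNA4 tumors and 2, 7.5 and 13 in B16-IFNA9 tumors. Again every B16-IFNA4 tumor lay above every other tumor, while B16-IFNA9 tumors reached somewhat above the control range, with 4 of 10 over the highest B16-GFP tumor. Mean Nefm was 0.178 ± 0.132 CPM (SD, n = 10) among control tumors, 4.47 ± 2.12 CPM in B16-IFNA4 and 0.425 ± 0.185 CPM in B16-IFNA9 tumors. The mean was 25.2-fold higher in B16-IFNA4 than in B16-GFP tumors, 10.5-fold higher in B16-IFNA4 than in B16-IFNA9 tumors and 2.39-fold higher in B16-IFNA9 than in B16-GFP tumors. The fitted log2 fold changes against B16-GFP tumors were 4.64 (SE 0.391) with IFNα4 and 1.26 (SE 0.427) with IFNα9. Between the interferon types, B16-IFNA9 minus B16-IFNA4, the log2 fold change was -4.15 (SE 0.452) for Nefl and -3.38 (SE 0.349) for Nefm. Of all 15926 genes tested, 8.5% had every B16-IFNA4 tumor above every B16-GFP tumor, and 0.741% had every B16-IFNA9 tumor below every B16-IFNA4 tumor. Both genes were picked for this pattern.

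Nefh, the heavy chain, was not separated between the interferon types. Counts were 0, 2.5 and 14 in B16-GFP tumors, 4, 12.5 and 19 in B16-IFNA4 tumors and 1, 12 and 29 in B16-IFNA9 tumors. The types overlapped in every comparison, and each interferon type had 4 tumors above the highest control tumor. Mean Nefh was 0.235 ± 0.256 CPM (SD, n = 10) among control tumors, 0.635 ± 0.309 CPM in B16-IFNA4 and 0.878 ± 0.552 CPM in B16-IFNA9 tumors. The fitted log2 fold change was 1.35 (SE 0.499) for B16-IFNA4 and 1.82 (SE 0.49) for B16-IFNA9 tumors against B16-GFP tumors. Between the interferon types it was 0.46 (SE 0.441), B16-IFNA9 minus B16-IFNA4, about the size of its error. By the mean Nefh was highest in B16-IFNA9 tumors, and by the median in B16-IFNA4 tumors, at 0.728 CPM against 0.69 CPM. Counts this low limit the precision, since a count of 0 in 1 tumor allows up to 3 counts, which was 0.161 to 0.206 CPM in the tumors where a neurofilament gene had none. These limits cover counting error only.

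**Figure D1:**
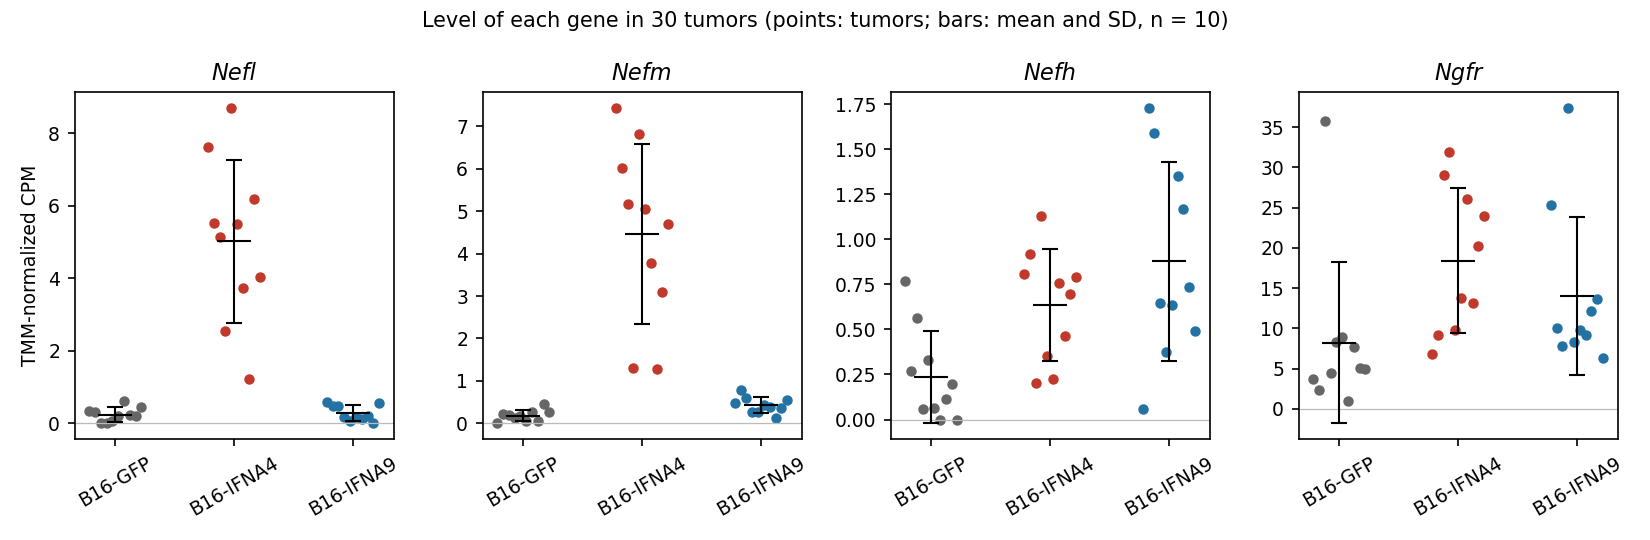
Level of Nefl, Nefm, Nefh and Ngfr in TMM-normalized CPM in each tumor, by tumor type, with the mean and SD over 10 tumors. The B16-IFNA4 tumors stand above all others for Nefl and Nefm, whereas the types overlap for Nefh and Ngfr, and 1 B16-GFP tumor reaches 35.8 CPM of Ngfr.

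Per kilobase of exon, which allows genes to be compared, the chains were in different proportions in the 3 types. In B16-IFNA4 tumors the level was 1.48 ± 0.665 CPM per kb (SD, n = 10) for Nefl, 0.773 ± 0.366 for Nefm and 0.159 ± 0.0774 for Nefh. Nefl lay above Nefm in 10 of 10 and above Nefh in 10 of 10 of these tumors, and Nefm lay above Nefh in 9 of 10. In B16-IFNA9 tumors Nefh had the highest mean of the 3 chains, with Nefh at 0.22 ± 0.138 CPM per kb, Nefl at 0.0822 ± 0.0657 and Nefm at 0.0734 ± 0.0321. Nefh lay above Nefm in 9 of 10 of them. The difference between Nefl and Nefm there was smaller than either SD. In B16-GFP tumors, at 14 counts or fewer, Nefl was at 0.0705 ± 0.059 CPM per kb, Nefh at 0.059 ± 0.064 and Nefm at 0.0307 ± 0.0229. As shares of the mean neurofilament level per length, Nefl made up 61.4%, Nefm 32% and Nefh 6.58% in B16-IFNA4 tumors. The same shares were 21.9%, 19.6% and 58.5% in B16-IFNA9 tumors and 44%, 19.2% and 36.8% in B16-GFP tumors. The order of Nefl and Nefm, and these shares, depended on the length used for Nefm. Over its shorter transcript of 3334 bases, which does not reach Nefl, Nefm was at 1.34 ± 0.635 CPM per kb in B16-IFNA4 tumors, and Nefl lay above it in 5 of 10. In B16-IFNA9 tumors it was then at 0.127 ± 0.0556 CPM per kb, with Nefl above it in 2 of 10, and in B16-GFP tumors at 0.0533 ± 0.0397, with Nefl above it in 6 of 10. The shares of Nefl, Nefm and Nefh were then 49.7%, 45% and 5.34% in B16-IFNA4, 19.2%, 29.6% and 51.3% in B16-IFNA9 and 38.6%, 29.2% and 32.3% in B16-GFP tumors.

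**Figure D2:**
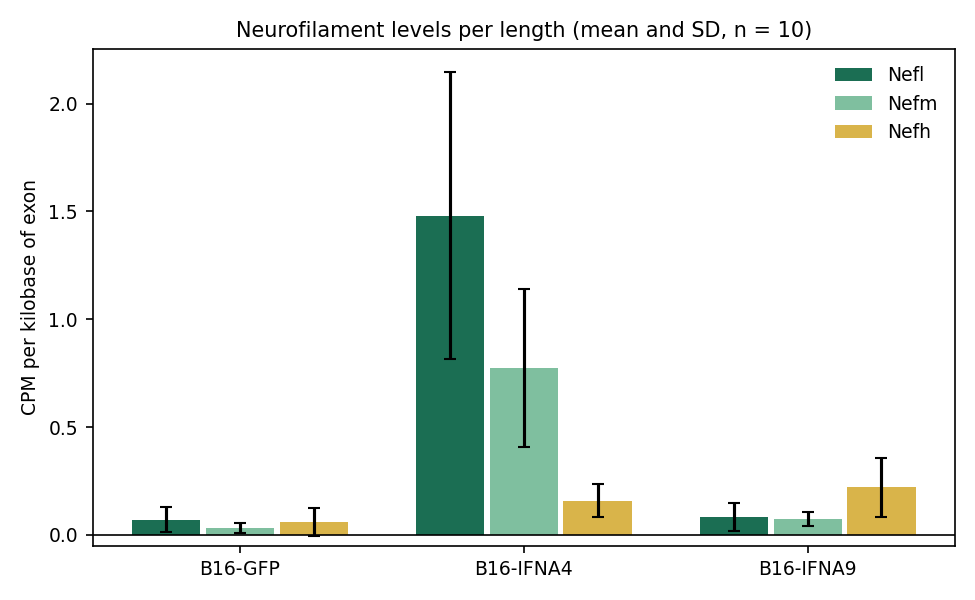
Mean level of the 3 neurofilament genes in CPM per kilobase of exon in each tumor type, with SD over 10 tumors. Nefl and Nefm lead in B16-IFNA4 tumors at 1.48 and 0.773 CPM per kb, and Nefh leads in B16-IFNA9 tumors at 0.22 CPM per kb.

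Even at their highest, the neurofilament genes were among the less abundant transcripts. In B16-IFNA4 tumors 26.5% of the genes tested had a lower mean CPM than Nefl and 25.2% a lower mean than Nefm, against 0.515% and 0.333% in B16-GFP tumors. For Nefh the share was 0.502% in B16-GFP, 2.45% in B16-IFNA4 and 5.61% in B16-IFNA9 tumors. Ngfr lay higher, above 34.1%, 47.6% and 42.3% of the genes in the same order of types.

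The choice of the genes used differences between types and not the order of tumors within a type, so the order within a type could be tested. Of 18 correlations, 6 pairs of genes in each of 3 types, 1 had an adjusted p under 0.05. In B16-IFNA4 tumors, Nefl and Nefm rose and fell together, with Pearson's r = 0.878 (n = 10, two-sided permutation test with 100000 resamples, p = 0.00127, adjusted p = 0.0229) and Spearman's rho = 0.794 (permutation test, p = 0.00868, adjusted p = 0.156). Without the 2 tumors farthest from the median of Nefl, r was 0.578. The relation rested in part on B16-IFNA4 tumors 4 and 8, which were lowest for both genes, with 43 and 21 counts of Nefl and 22 counts each of Nefm. Leaving out tumor 1, 4, 5, 7 or 8 of this type left none of the 18 correlations with an adjusted p under 0.05. In B16-IFNA9 tumors r was 0.559 (permutation test, adjusted p = 0.557) and in B16-GFP tumors 0.094 (permutation test, adjusted p = 0.904), where counts of 0 to 7 leave little to correlate. No correlation of Nefh with either partner passed the threshold, with r between -0.359 and 0.089 over both pairs and all types and an adjusted p of 0.687 at the lowest (permutation tests).

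**Figure D3:**
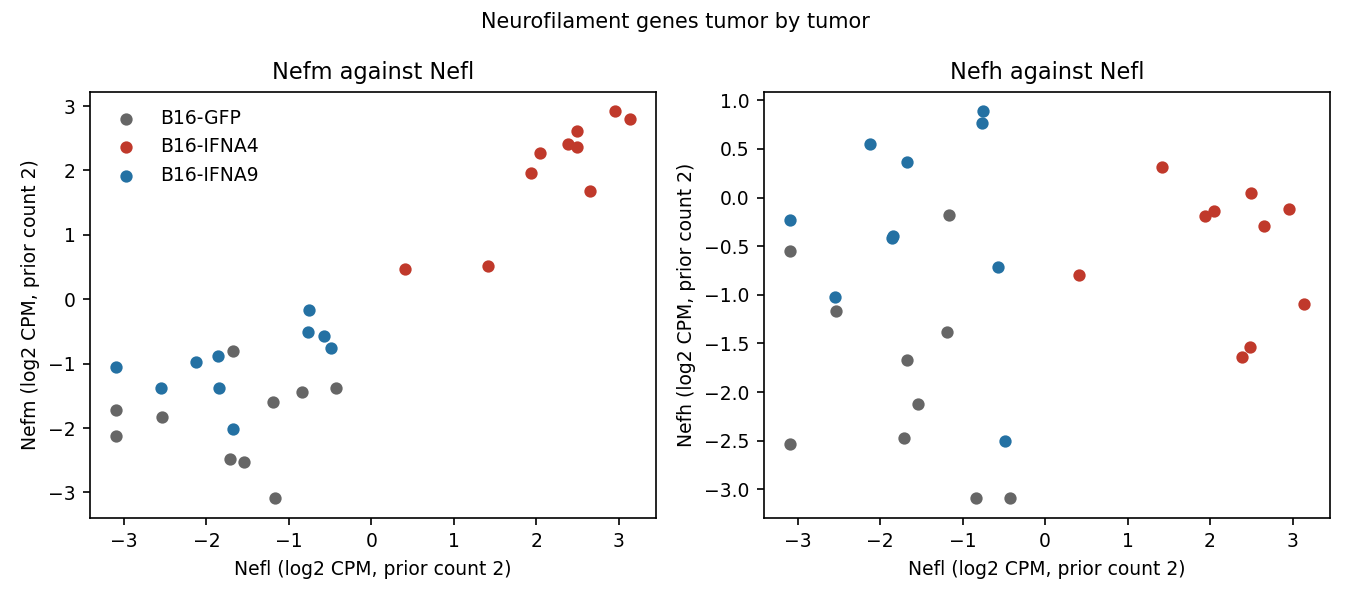
Nefm (left) and Nefh (right) against Nefl, each in log2 CPM with a prior count of 2, 1 point per tumor and 10 tumors per type. The B16-IFNA4 tumors form a line of their own for Nefl and Nefm (r = 0.878), and no such line is seen for Nefl and Nefh (r = -0.16 in these tumors).

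Ngfr had the highest level per length of the 4 genes in every tumor type, with means of 2.39, 5.33 and 4.06 CPM per kb in B16-GFP, B16-IFNA4 and B16-IFNA9 tumors. Its coefficient of variation was 122% among control tumors, 52.5% without B16-GFP tumor 3, and 49% and 70% in the interferon types. Its counts were 11, 79 and 572 in B16-GFP tumors, 109, 295 and 566 in B16-IFNA4 tumors and 103, 177 and 694 in B16-IFNA9 tumors. All interferon tumors lay above the median control tumor, and the ranges of the types overlapped. B16-GFP tumor 3 reached 35.8 CPM, and the other 9 control tumors, at 0.982 to 8.95 CPM, also overlapped the interferon types, whose lowest tumors held 6.76 CPM with IFNα4 and 6.34 CPM with IFNα9. Mean Ngfr was 8.24 ± 10.0 CPM (SD, n = 10) among control tumors, 18.4 ± 9.01 CPM in B16-IFNA4 and 14 ± 9.79 CPM in B16-IFNA9 tumors. The fitted log2 fold change against B16-GFP tumors was 1.16 (SE 0.436) with IFNα4 and 0.76 (SE 0.434) with IFNα9, and B16-IFNA9 minus B16-IFNA4 gave -0.39 (SE 0.428). Without B16-GFP tumor 3, the control mean was 5.17 ± 2.71 CPM (SD, n = 9) and the log2 fold changes were 1.82 and 1.43. With B16-GFP tumor 7, the lowest at 0.982 CPM, also left out, an alternative chosen after the values were seen, they were 1.70 and 1.29. Within B16-IFNA9 tumors, tumors 1 and 4 held 25.3 and 37.4 CPM, and the other 8 lay at 6.34 to 13.7 CPM. Without B16-IFNA9 tumor 4, the log2 fold change was 0.48 for B16-IFNA9 against B16-GFP and -0.67 for B16-IFNA9 minus B16-IFNA4.

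No correlation of Ngfr with a neurofilament gene passed the threshold. Its correlation with Nefl was negative in B16-GFP tumors, with r = -0.72 and rho = -0.721 (n = 10, two-sided permutation tests, p = 0.0158 and 0.023), but not after adjustment over the 18 correlations (adjusted p = 0.143 and 0.207). The Nefl counts there were 0 to 7. In B16-IFNA4 tumors r was -0.378 with Nefl and -0.482 with Nefm (permutation tests, adjusted p = 0.687 for both), and rho was -0.612 and -0.576 (permutation tests, adjusted p = 0.304 and 0.317). Without the 2 tumors farthest from the median of the neurofilament gene, r was -0.75 and -0.753, so its size depended on them. The B16-IFNA4 tumors with the most Nefl, tumors 5 and 1, held 9.81 and 6.76 CPM of Ngfr, below the type's median of 17 CPM. Tumor 8, with the least Nefl at 1.21 CPM, also lay below that median, at 13.2 CPM of Ngfr.

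Only Ngfr of the 4 genes has an entry in the RefSeq promoter table used here. Its sequence upstream of the annotated starts is shown, since it is the regulatory sequence next to a gene compared across interferon tumors, from chr11:95587736-95587948 of GRCm38.p6 on the minus strand, with GC boxes (GGGCGG on the printed strand) in capitals.
Ngfr promoter: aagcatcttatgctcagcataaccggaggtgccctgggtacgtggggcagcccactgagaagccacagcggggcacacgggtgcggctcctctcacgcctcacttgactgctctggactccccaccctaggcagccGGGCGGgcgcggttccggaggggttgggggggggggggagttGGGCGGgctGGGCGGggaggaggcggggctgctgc
The 300-base window around the RefSeq start held 71.7% G and C, above 92.6% of the windows in the table, whose median was 52.7%. Searched on both strands, it held 4 GGGCGG boxes, a motif found in 35.7% of 32851 windows of the same length. It held no TATAAA (in 13.6% of windows), no core of the interferon-stimulated response element, searched as GAAA and GAAA with 2 bases between them (in 3.44%), and no TTCNNNGAA, the site of activated STAT dimers (in 8.3%). These counts describe letters in this window only.

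The genes that work with neurofilaments and with the p75 receptor were taken from 7 lists of 71 genes, of which 59 were tested. Between B16-IFNA4 and B16-GFP tumors, 22 of the 59 were higher and 14 lower (edgeR's quasi-likelihood test, Benjamini-Hochberg adjusted p under 0.05), or 61%. Of all genes tested, 65.4% passed, 31.3% higher and 34.1% lower. Between B16-IFNA9 and B16-GFP tumors, 17 were higher and 15 lower, or 54.2%, against 55.7% of all genes, 26.9% higher and 28.9% lower. B16-IFNA9 and B16-IFNA4 tumors differed in 13 of the 59, 5 higher and 8 lower with IFNα9, or 22%, against 17.8% of all genes, 10.5% higher and 7.25% lower. These shares lay near the background in each comparison. The median log2 fold change over the 59 was 0.169, 0.051 and -0.094 in the 3 comparisons, against 0.009, -0.003 and -0.006 over all genes. Scaling by library totals in place of TMM moved the median of all genes between B16-IFNA9 and B16-GFP tumors by 0.101, and the calls over all genes there from 4281 higher and 4595 lower to 5052 and 3608. Of the listed genes 20 were then higher and 13 lower.

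Of 10 tested partners of neurofilaments, 6 were higher in B16-IFNA4 and 4 in B16-IFNA9 than in B16-GFP tumors, and none was lower. Of all genes, 31.3% and 26.9% were higher and 34.1% and 28.9% lower. B16-GFP tumor 7 was the lowest control tumor for this list, at a mean log2 CPM of 4.84 against 5.37 to 5.67. The counts were the same without that tumor. Kif5c, a kinesin heavy chain that moves cargo along axons, rose from 3.13 ± 1.34 CPM (SD, n = 10) in B16-GFP to 7.54 ± 1.62 in B16-IFNA4 and 6.15 ± 1.34 in B16-IFNA9 tumors, with log2 fold changes of 1.26 (SE 0.214, edgeR adjusted p = 8.44e-06) and 0.97 (SE 0.214, edgeR adjusted p = 0.000351). Plec, a linker of filaments to membranes, rose by 0.65 with IFNα4 (edgeR adjusted p = 0.00349) and was at -0.04 with IFNα9 (edgeR adjusted p = 0.871). B16-IFNA9 tumors were below B16-IFNA4 tumors for Plec, by a log2 fold change of -0.69 (edgeR adjusted p = 0.0104). Map2, a microtubule-associated protein of dendrites, rose by 0.41 with IFNα4. The list had a median log2 fold change of 0.36 with IFNα4 and 0.245 with IFNα9.

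Most of the other intermediate filament genes that passed the test were lower in interferon tumors. Of 8 tested, 1 was higher (2 without B16-GFP tumor 3) and 4 were lower in B16-IFNA4 than in B16-GFP tumors, and 7 were lower and none higher in B16-IFNA9 tumors, or 5 lower without B16-GFP tumor 3 or under scaling by library totals. Of all genes, 34.1% were lower with IFNα4 and 28.9% with IFNα9. Gfap, the filament of astrocytes and some glia, fell by 1.44 on the log2 scale with IFNα4 (SE 0.195, edgeR adjusted p = 2.31e-07) and by 0.55 with IFNα9 (edgeR adjusted p = 0.015). Lmnb1 and Lmnb2, which form the nuclear lamina, fell by 1.06 and 1.14 with IFNα4 and by 0.52 and 0.85 with IFNα9. Synm, a filament protein of muscle, rose by 0.56 with IFNα4 (edgeR adjusted p = 0.0259) and fell by 0.52 with IFNα9 (edgeR adjusted p = 0.0416). Ina, which encodes α-internexin, a neuronal filament protein that joins neurofilaments, had too few counts to be tested, at 0.0989 ± 0.0954 CPM (SD, n = 10) in B16-GFP, 0.321 ± 0.187 in B16-IFNA4 and 0.239 ± 0.126 in B16-IFNA9 tumors. It is named outside the rule, after its values were seen. Prph, which encodes peripherin, was not analysed here.

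On the side of Ngfr, genes of its ligands, the neurotrophins, were measured. Ntf3 rose by 0.86 and 0.69 and Ntf5 by 0.67 and 0.55 on the log2 scale with IFNα4 and IFNα9 against B16-GFP tumors. Without B16-GFP tumors 3 and 7, an alternative chosen after the values were seen, neither passed the test with IFNα9. Bdnf, named outside the rule, was at 0.38 and 0.13 and did not pass the test in either type (edgeR adjusted p = 0.059 and 0.558).

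Among 7 tested receptors and co-receptors, 3 were higher and 2 lower in B16-IFNA4 than in B16-GFP tumors, beside 31.3% and 34.1% of all genes. Without B16-GFP tumor 3, 1 was lower. With IFNα9, 1 was higher and 1 lower, beside 26.9% and 28.9% of all genes. B16-GFP tumor 7 was the lowest control tumor for this list, at a mean log2 CPM of 1.06 against 2.08 to 2.88. Without tumor 7, 3 were higher and 2 lower with IFNα4, and 1 and 2 with IFNα9. Sorl1, a sorting receptor, rose by 1.13 with IFNα4 (SE 0.206, edgeR adjusted p = 2.43e-05) and Sorcs1 by 0.91. Sort1, which encodes sortilin, the partner of p75 in binding neurotrophin precursors, fell by 0.80 with IFNα4 (SE 0.111, edgeR adjusted p = 3.46e-07) and by 0.54 with IFNα9. Ntrk3, the receptor of neurotrophin-3, rose by 0.71 with IFNα4 (edgeR adjusted p = 0.013). Ntrk2 was not analysed here.

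Of 7 tested genes for the cleavage of p75, 4 were lower and 1 was higher in each interferon type, where 34.1% of all genes were lower with IFNα4 and 28.9% with IFNα9. B16-GFP tumor 7 was the highest control tumor for this list, at a mean log2 CPM of 7.16 against 6.39 to 6.74 in the others, and without it 3 of 7 were lower in each type. Under scaling by library totals 3 were lower with IFNα4 and 4 with IFNα9. Psen2 and Aph1b, subunits of γ-secretase, fell by 1.32 and 1.03 with IFNα4 (edgeR adjusted p = 1.82e-06 and 7.3e-07) and by 0.88 and 0.43 with IFNα9. Ncstn, another subunit, rose by 0.29 and 0.24. Of 14 adaptors of the receptor and ligands of its co-receptors, 3 were higher and 3 lower with IFNα4, beside 31.3% and 34.1% of all genes. Under scaling by library totals 7 of the 14 were higher and 3 lower. Bex3 and Maged1, which bind the inner part of p75, fell by 1.26 and 0.86 with IFNα4 (edgeR adjusted p = 2.93e-09 and 1.51e-08). With IFNα9 Bex3 was at -0.30 (edgeR adjusted p = 0.0502) and Maged1 fell by 0.39. Arhgdia, which holds small GTPases inactive, fell by 0.82. The kinase gene Ripk2 rose by 0.68 and 0.60, and the zinc finger gene Zfp369 by 0.71 and 0.68.

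**Figure D4:**
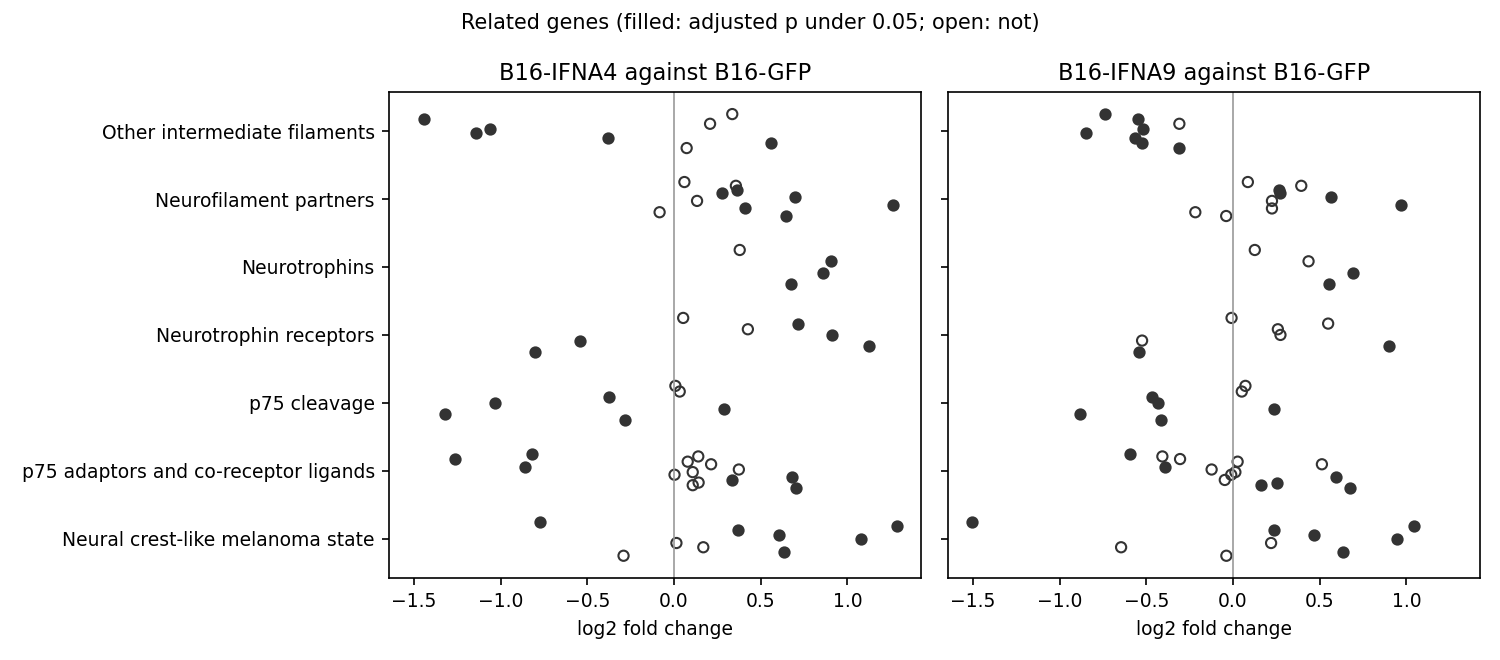
Log2 fold change of the 59 tested genes in the 7 lists, by list, for B16-IFNA4 (left) and B16-IFNA9 (right) against B16-GFP tumors, filled where the adjusted p was under 0.05. With IFNα4 the 10 neurofilament partners have 6 filled points, all above 0, and the 7 p75 cleavage genes have 4 filled points below 0 and 1 above. Of all genes tested, 31.3% were higher and 34.1% lower with IFNα4.

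In melanoma Ngfr is read as a mark of a neural crest-like state. Of 9 other tested genes of that state, 5 were higher and 1 lower in both interferon types against B16-GFP tumors, beside 31.3% and 26.9% of all genes higher. B16-GFP tumor 7 was lowest of the controls for this list, at a mean log2 CPM of 4.48 against 5.46 to 5.91, and highest for pigment cell genes, at 9.73 against 8.02 to 8.77. Without it 5 of the 9 were higher with IFNα4 and 4 with IFNα9, and 1 and 2 were lower. Axl rose by 1.28 with IFNα4 (SE 0.144, edgeR adjusted p = 8.15e-09) and 1.04 with IFNα9, and L1cam by 1.08 and 0.94. Rxrg, Ncam1 and Tnc, named outside the rule, passed the test in neither type. Rxrg was at 0.169 with IFNα4 and -0.645 with IFNα9 (edgeR adjusted p = 0.599 and 0.052). Gfra2 was not analysed here. Which cells of the tumors carried the transcripts of this list was not tested. Aqp1, a water channel also made by endothelial cells, fell by 0.77 with IFNα4 and further with IFNα9 (edgeR adjusted p = 1.91e-07), from 131 ± 38.3 CPM (SD, n = 10) in B16-GFP to 76.7 ± 18.1 in B16-IFNA4 and 46.3 ± 15.8 in B16-IFNA9 tumors. That was the largest change of the list with IFNα9, and B16-IFNA9 tumors were also below B16-IFNA4 tumors (edgeR adjusted p = 0.00708). Pigment cell genes were lower in 6 of 6 tested in both types, also without tumor 7, for example Tyrp1 from 9340 ± 4220 CPM (SD, n = 10) in B16-GFP to 2380 ± 399 in B16-IFNA4 and 4160 ± 1370 in B16-IFNA9 tumors.

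Marker genes of cells that could carry these transcripts were examined in the same tumors, where 31.3% of all genes were higher and 34.1% lower with IFNα4, and 26.9% and 28.9% with IFNα9. Of 10 neuron markers, 5 were tested, and Snap25, a synaptic protein, had no count in any B16-GFP tumor and a mean of 0.0464 ± 0.087 CPM (SD, n = 10) in B16-IFNA4 tumors. The summed level of the neuron markers was 21.7 to 47.3 CPM in B16-GFP, 19.1 to 39.4 in B16-IFNA4 and 15.5 to 32.4 in B16-IFNA9 tumors. Tubb3, the most abundant of them, fell from 24.4 ± 8.69 CPM (SD, n = 10) in B16-GFP to 16.7 ± 6.19 in B16-IFNA4 and 13.5 ± 3.93 in B16-IFNA9 tumors. Of the 5 tested, only Gap43, a growth cone protein, was higher in B16-IFNA4 than in B16-GFP tumors. Another 3 were lower, among them Stmn2 at -0.87 (SE 0.245, edgeR adjusted p = 0.00266). Gap43 was also highest in B16-IFNA4 tumors, at 1.08 ± 0.315 CPM (SD, n = 10) in B16-GFP, 4.02 ± 1.43 in B16-IFNA4 and 0.914 ± 0.383 in B16-IFNA9 tumors, with log2 fold changes of 1.89 (SE 0.263, edgeR adjusted p = 3.85e-07) with IFNα4 and -0.24 (edgeR adjusted p = 0.468) with IFNα9. The 5 untested neuron markers, Elavl3, Elavl4, Rbfox3, Snap25 and Syt1, had means of 0.698 CPM or less in each type. Elavl4 had means of 0.0318 CPM in B16-GFP, 0.238 in B16-IFNA4 and 0.372 in B16-IFNA9 tumors, and Elavl3 had 0.116, 0.264 and 0.222. Syt1 and Snap25 also had their lowest mean in B16-GFP tumors, whereas Rbfox3 had its highest there. These 5 genes are named outside the rule.

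The 11 Schwann cell markers summed to 456 to 790 CPM in B16-GFP, 485 to 696 in B16-IFNA4 and 448 to 653 in B16-IFNA9 tumors. Of 10 tested, 3 were higher and 1 was lower with IFNα4, and 2 were higher and 1 lower with IFNα9, so that the share that was higher lay near that of all genes, 31.3% and 26.9%. Pou3f1 and Egr2 rose by 0.87 and 0.76 with IFNα4, and Mbp, which also has transcripts in leukocytes, fell by 1.01. Fibroblast markers were higher in 3 of 6 with IFNα4 and 1 of 6 with IFNα9, with sums of 2900 to 13000, 7390 to 12900 and 7270 to 12100 CPM. With IFNα9 it was 3 of 6 under scaling by library totals or without B16-GFP tumor 3. Pericyte markers were lower in 3 of 6 and 4 of 6, led by Rgs5 at -1.90 and -2.22, with sums of 241 to 682, 214 to 319 and 185 to 282 CPM. Leukocyte markers were higher in 7 of 7 in both types, and their sum was 306 to 954 CPM in B16-GFP, 1360 to 2910 in B16-IFNA4 and 978 to 1960 in B16-IFNA9 tumors. Dendritic cell markers were higher in 5 of 8 with IFNα4 and 7 of 8 with IFNα9, and interferon-stimulated genes in 11 of 11 with both. The part of these cells in the levels of the 4 genes was not tested.

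Within a tumor type, each of the 4 genes was set against the mean log2 CPM of 6 lists, 72 correlations in all, none of which had an adjusted p under 0.05 for Pearson's r (15 had an unadjusted p under 0.05) and 3 of which did for Spearman's rho, 1 of them at Nefl counts of 0 to 7. Ngfr and the Schwann list ran together in B16-GFP tumors by rank, with r = 0.845 (n = 10, two-sided permutation test, p = 0.00152, adjusted p = 0.0547) and rho = 0.903 (permutation test, p = 0.00081, adjusted p = 0.0292), and r was 0.87 without the 2 tumors farthest from the median of the list. In the same tumors Ngfr had r = 0.813 with the fibroblast list and 0.8 with the leukocyte list (permutation tests, adjusted p = 0.0973 for both). These fell to 0.522 and 0.488 without the 2 farthest tumors. In B16-IFNA4 tumors Nefm had r = 0.862 with the leukocyte list (n = 10, permutation test, p = 0.00077, adjusted p = 0.0547) and rho = 0.758 (permutation test, adjusted p = 0.18). Nefh followed the dendritic cell list in B16-IFNA9 tumors by rank, with rho = 0.927 (n = 10, permutation test, p = 0.00034, adjusted p = 0.0245), whereas r was 0.62 (permutation test, adjusted p = 0.254).

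The genes most like each of the 4 across tumors were ranked by Pearson's r of log2 CPM over the 30 tumors, as a description. All points share the same libraries, and the differences between types enter the value. Nefl was most like Ifna4, the gene of the secreted interferon, which had no count outside B16-IFNA4 tumors (r = 0.916), then Nefm (0.907), Mmp8 (0.847), Sat1 (0.84) and Mthfsl (0.833). Nefm was most like Ifna4 (0.909), Nefl (0.907), Aldh1b1 (0.896), Mthfsl (0.871) and Gdf3 (0.871). Nefh was most like Cass4 (0.803), Atp8a1 (0.78), Gbp2b (0.769), Tapbpl (0.768) and Apol10b (0.763). Ngfr was most like Tgm2 (0.918), Akr1c14 (0.904), Oxtr (0.901), Cldn11 (0.896) and Akr1cl (0.889).

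With the mean of each type subtracted, only differences among tumors of a type remain. For Ngfr the leading genes were then Tgm2 (0.918), Cldn11 (0.906) and Akr1c14 (0.876), all of which had also been in its first list. For the neurofilament genes the leading genes changed entirely. They were Sgpl1 (0.66), Pcgf3 (0.659) and Npc1 (0.646) for Nefl, Ccsap (0.732), Haus8 (0.668) and Cd276 (0.63) for Nefm, and Il18bp (0.698), Pycard (0.695) and Gm31026 (0.686) for Nefh. Nefl and Nefm had r = 0.508 with each other on this scale. Tgm2, which encodes transglutaminase 2, had 115 ± 95.8 CPM (SD, n = 10) among control tumors, 214 ± 73.1 in B16-IFNA4 and 134 ± 55.9 in B16-IFNA9 tumors.

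**Figure D5:**
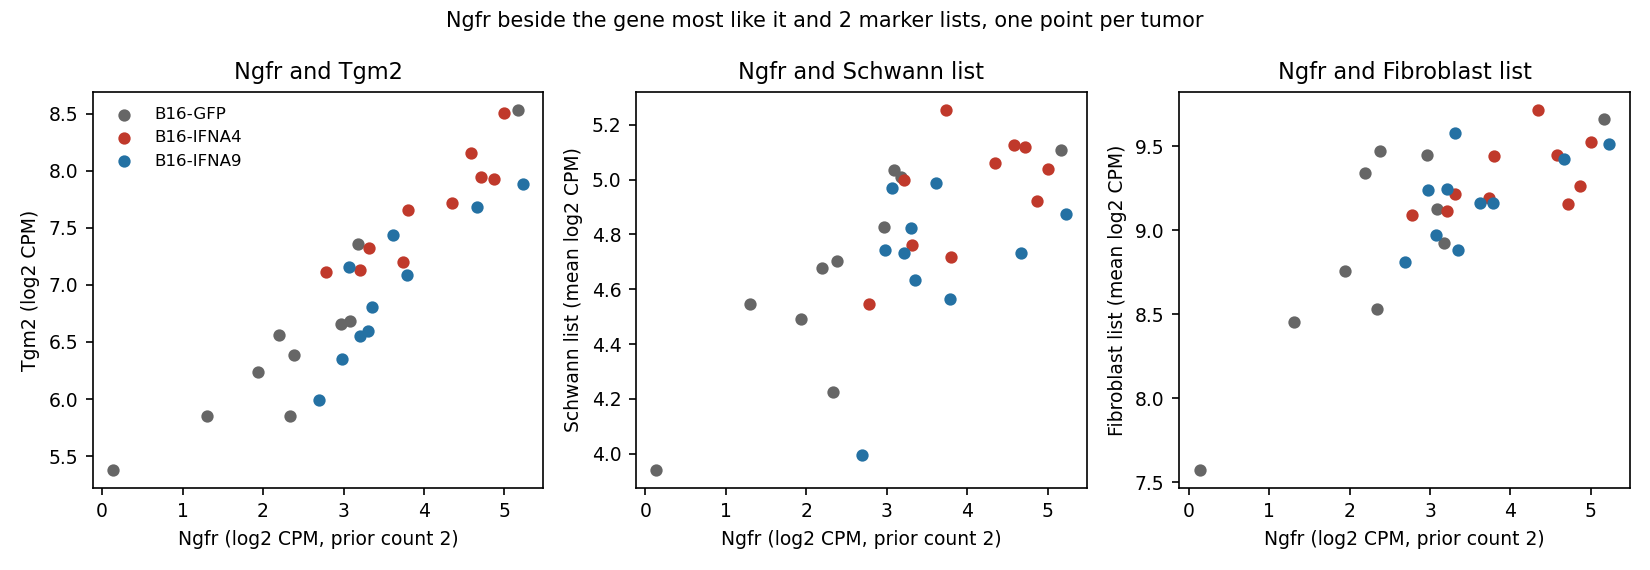
Tgm2 in log2 CPM and the mean log2 CPM of the Schwann and fibroblast lists against Ngfr in log2 CPM, 1 point per tumor and 10 per type. Tgm2 follows Ngfr in all 3 types (r = 0.918 over 30 tumors), and the Schwann list follows it in B16-GFP tumors (r = 0.845).

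Genes that start within 250 kb of the 4 genes were also compared. Around Nefl and Nefm only these 2 genes were counted, and the others annotated there, such as Dock5, were not analysed here. Of 13 tested genes around Nefh, 2 were higher and 6 lower in B16-IFNA4 than in B16-GFP tumors, and 1 was higher and 6 lower in B16-IFNA9 tumors. These were 61.5% and 53.8% of the 13, beside 65.4% and 55.7% of all genes. Nipsnap1 fell by 1.35 and 0.72 on the log2 scale and Uqcr10, a subunit of respiratory complex III, by 1.31 and 1.41 (edgeR adjusted p = 0.00015 at the highest), while Nefh was at 1.35 and 1.82. Rasl10a and Cabp7 rose by 0.78 and 0.64 with IFNα4, and the pseudogene AA413626 rose by 1.04 with IFNα9. Of 7 tested genes around Ngfr, 3 were higher and 2 lower with IFNα4, and 2 were higher and 3 lower with IFNα9, or 5 of 7 in each. Phb, which encodes prohibitin, fell by 1.25 and 0.91. Gngt2, a G protein subunit gene, rose by 0.95 with IFNα4 (SE 0.137, edgeR adjusted p = 6.22e-07) and was at 0.16 with IFNα9 (edgeR adjusted p = 0.323).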

How the data were processed

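Whole tumors, 10 of each of 3 types, gave 30 stranded mRNA libraries, read from 1 end over 50 bases. HISAT2 and summarizeOverlaps were the tools by which the authors aligned reads and assigned them to genes. The submitters' processing notes list HISAT2 2.0.4, FastQC 0.11.3 and mm10, whereas the study's methods name the genome mm11. The deposited values are whole-number counts, not normalized. The overlap mode, the strand setting and the treatment of reads with several alignments are not given in the sources used here, so genes that overlap or share sequence are uncertain. Of the identifiers, 39495 matched GENCODE M21 (GRCm38), 36719 of them in the same version. No row lacked a gene and no pair of columns was identical.

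The tests between types used edgeR 4.0.16 in R 4.3.3 (TMM scaling, mean of at least 10 counts, all 30 tumors in 1 quasi-likelihood fit, Benjamini-Hochberg adjustment over 15926 genes, threshold 0.05). The common biological coefficient of variation was 0.281. Log2 CPM took a prior count of 2. Correlations and plots used Python 3.11.15, SciPy 1.17.1, pandas 2.3.3 and matplotlib 3.10.9, with two-sided permutation tests of 100000 resamples. Both kinds of test were tested on simulated data. Total counts per tumor ran from 14598517 to 19788383. The tumors are labelled as biological replicates, and p-values set differences or correlations against the spread between them. With 1 line per type, they hold no spread between separately made lines.

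The 4 genes, the lists and the tests were chosen with earlier results of these data known. Other genes were named by a rule: per list up to 4 called genes with the largest change, genes within 250 kb, and the 5 and 3 genes most like each of the 4 genes. Tumors with the same number were compared, and in 4 of 30 such pairs the deviations from the type means had r above 0.1 (range -0.267 to 0.302), so the numbers did not pair tumors. Alternatives were DESeq2 1.42.0 as test, its size factors or library totals as scaling, other filters on low counts, only the types compared, a prior count of 0.5, a replicate block and each tumor left out in turn. No protein sequences or promoters of Nefl, Nefm and Nefh were used here. Some genes and sequences that the rules take are not reported here.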

Additional observations from a re-analysis of the deposited data

Results flagged for a closer look

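In groups of 10 tumors, a value was looked at again when the distance to its neighbour, divided by the range of all 10, exceeded the 95% limit of Dixon's test. This was searched in 69 groups of values, the 4 genes and 15 lists in 3 types, with the genes in log2 CPM and in CPM. It was met 11 times, where chance gives about 1 in 20 groups, or 3.45.

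Of the 4 genes, Ngfr met it in B16-GFP tumor 3 on the CPM scale, at 35.84 CPM against 0.98 to 8.95 in the other 9 tumors, and did not on the log2 scale. No neurofilament gene met it on either scale.

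The other 10 values were mean log2 CPM of lists. B16-GFP tumor 7 was the lowest of its type for neurofilament partners (4.84, others 5.37 to 5.67), neurotrophin receptors (1.06, others 2.08 to 2.88) and neural crest-like state genes (4.48, others 5.46 to 5.91). It was the highest for p75 cleavage genes (7.16, others 6.39 to 6.74) and pigment cell genes (9.73, others 8.02 to 8.77). It also had the lowest Ngfr level of all tumors. For p75 cleavage genes, B16-IFNA4 tumor 7 stood at 6.47 (others 6.26 to 6.35) and B16-IFNA9 tumor 5 at 6.66 (others 6.34 to 6.49). B16-IFNA9 tumor 5 was also highest for p75 adaptors, at 5.27 (others 5.03 to 5.14). B16-IFNA9 tumor 10 was lowest for the Schwann list, at 4.00 (others 4.56 to 4.99), and for the pericyte list, at 3.66 (others 4.36 to 5.08).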

How the results depend on the processing

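In the alternatives that gave a value, the fold changes of Nefl, Nefm, Nefh and Ngfr kept their direction. They moved by less than 1 SD of the tumors within types, which was 0.872, 0.706, 0.916 and 0.993 on the log2 scale. That limit is wide, since it exceeds some of the fold changes, such as 0.76 for Ngfr and 0.26 for Nefl with IFNα9. For Nefl between B16-IFNA4 and B16-GFP tumors the fold changes ran from 4.25 to 4.65 and for Nefm from 4.47 to 4.91. For Ngfr between B16-IFNA9 and B16-GFP tumors they ran from 0.48 to 1.43. Nefh, just above the filter, fell under it in 14 of the 30 fits that each left out 1 tumor. In fits of only the types compared, Nefl, Nefm and Nefh with IFNα9 and Nefh with IFNα4, each against B16-GFP, fell under it too and gave no value. Fitting only the types compared raised the genes called between B16-IFNA9 and B16-IFNA4 tumors from 2833 to 4332, and the cause was not tested. Leaving out 1 tumor gave 9949 to 10547, 8412 to 9195 and 2106 to 3801 genes called in the 3 comparisons, 0 to 2 of 18 correlated gene pairs, and 0 to 2 of 72 correlations with lists. With a prior count of 0.5 that last number was 1 (Pearson's r, permutation tests). The number of pairs was 2 without B16-GFP tumor 4, and that of list correlations was 2 without B16-GFP tumor 2, 4 or 10 and 1 without B16-IFNA4 tumor 10. The number called among all 59 listed genes stayed within 1.5 times.

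The replicate numbers did not pair the tumors. With a replicate block, 10249, 8626 and 2535 genes were called, and 35, 34 and 14 of the listed genes. The fold changes of Nefl, Nefm, Nefh and Ngfr with IFNα4 were then 4.44, 4.59, 1.43 and 1.40. The low counts of the neurofilament genes outside B16-IFNA4 tumors limit what can be said of them there.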
